A study of Homo sapiens with 8 samples.

Results

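The miRNA described here is miR-210, of which both mature arms, hsa-miR-210-3p and hsa-miR-210-5p, were taken by name from the table of read counts, 2 of the 1780 mature miRNAs listed there. Small RNA had been sequenced from DLD1 and HT29, established lines of human colorectal adenocarcinoma cells, each grown either as a flat monolayer on plastic (2D) or as multicellular spheroids (MCS), and the question was how the miRNA content of the cells differed between these cultures. Every culture was harvested on day 6. The monolayers were started from 35000 DLD1 cells or 100000 HT29 cells per flask, and the spheroids from 7000 DLD1 cells or 3500 HT29 cells in each agarose-coated round-bottom well. DLD1 was kept in RPMI and HT29 in DMEM, and the libraries were made with version V3 of the small RNA kit for DLD1 and version V2 for HT29, so that line, medium and kit cannot be told apart. The labels name no drug and no change of oxygen in any group, and the spheroids hold tumor cells alone, without stroma or vessels.

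There were 2 libraries for each of the 4 groups, which the labels call biological replicates, with 10495634 to 26211524 counts of mature miRNAs per library. The epithelial and intestinal markers miR-200a/b/c-3p, miR-141-3p, miR-192-5p, miR-194-5p and miR-215-5p were present in every library, miR-200c-3p at 53618 to 94141 CPM (counts scaled to 1e+06 per library) in DLD1 and 10821 to 20189 CPM in HT29. Of the markers of other cell types, miR-143-3p, miR-145-5p, miR-451a and miR-144-3p stayed at or under 7.40 CPM, and the endothelial marker miR-126-3p lay at 78.9 to 94.0 CPM in DLD1 and 2.19 to 15.3 CPM in HT29; miR-223-3p was not analysed here. In HT29 the libraries numbered 1 stood apart from those numbered 2 in both cultures. MiR-10a-5p took 47.3% and 38.5% of the counts of the former (2D and MCS) and 10.6% and 6.57% of those of the latter, against 15.2% to 19% in DLD1. The former also held fewer miRNAs with a read, 1061 and 1087 against 1438 and 1368. Levels were compared on normalized CPM, for which each library total was corrected by its upper quartile factor within the line. The upper quartile is the method named in the paper, and other scalings were set beside it.

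MiR-210 is the miRNA most regularly induced by low oxygen in human cells. Hypoxia-inducible factors bind DNA at the host gene and raise its transcription, and the mature 3p arm, loaded into Argonaute, represses among others the iron-sulfur cluster scaffold ISCU, which lowers mitochondrial respiration, and the ephrin EFNA3. Spheroids of tumor cells form a gradient of oxygen from the rim to the core, and miR-210 is used as a marker of hypoxia in tumors.

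The sequences of both arms are shown because the reads were assigned to them by sequence alone. They are from RefSeq, with the seed (bases 2 to 8, by which a miRNA pairs with its targets) in capitals, and the positions are on the minus strand of GRCh37, the build the reads were aligned to.
hsa-miR-210-3p, chr11:568112-568133: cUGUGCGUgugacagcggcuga
hsa-miR-210-5p, chr11:568150-568171: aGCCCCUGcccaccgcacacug
Both come from the single hairpin MIR210, given here with the mature arms in capitals, the 5p arm first.
MIR210, chr11:568089-568198: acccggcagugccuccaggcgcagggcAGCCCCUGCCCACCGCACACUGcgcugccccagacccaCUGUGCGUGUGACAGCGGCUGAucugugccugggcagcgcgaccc
The hairpin is 110 nucleotides long, matches the genome letter for letter, and is intronic: it overlaps no exon of MIR210HG, the long non-coding host gene at 565657 to 568457. Neither seed is shared by any of the other mature human miRNAs among the 2370 in the RefSeq table, and 1 other miRNA shares bases 2 to 7 of each. The nearest other mature sequence to the 3p arm was miR-3666 at 8 edits and the nearest to the 5p arm miR-4749-3p at 7 edits, and each arm was found in 1 hairpin, so no near-identical copy was found that could share its reads.

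The window around the start of MIR210HG is shown because both arms are made from its transcript. It covers 250 bases before to 50 after the RefSeq start, on the minus strand of GRCh38.p14, with matches to ACGTG and GCGTG, the core letters to which hypoxia-inducible factors bind, in capitals.
MIR210HG, chr11:568408-568707: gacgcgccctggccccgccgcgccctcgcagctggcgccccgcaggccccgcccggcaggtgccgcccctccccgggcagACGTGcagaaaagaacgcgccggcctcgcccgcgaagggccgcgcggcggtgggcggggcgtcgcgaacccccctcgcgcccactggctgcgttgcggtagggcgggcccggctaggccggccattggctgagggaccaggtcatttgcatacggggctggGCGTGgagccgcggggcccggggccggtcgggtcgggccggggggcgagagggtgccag
G and C made up 80% of the window. It held 1 match to each motif, at bases 81 and 242, which do not overlap each other. Searched on both strands, ACGTG was found in 21.4% and GCGTG in 36.4% of 34796 promoter windows of the same length. These letters are a description of the window, and no binding was measured in these samples.

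In DLD1 cells miR-210-3p was up-regulated in MCS 4.32-fold compared to 2D. The 2D libraries held 3341 and 5457 reads of it, or 190 and 183 normalized CPM. The MCS libraries held 17019 and 10788 reads, or 909 and 707 normalized CPM. Both MCS libraries thus lay far above both 2D libraries, which were nearly equal, and the groups did not overlap. The log2 fold change was 2.11 ± 0.24 (SE, n = 2 against 2), with a 95% interval of 1.64 to 2.59 (3.11-fold to 6.01-fold). It passed edgeR's quasi-likelihood test, in which the spread was shared across all 346 miRNAs tested, at a Benjamini-Hochberg adjusted p of 5.24e-16. Among the 2 arms, 1 was called up in this line, beside 29.8% of all miRNAs tested, and 1 had both MCS libraries above both 2D libraries, beside 45.4% of all.

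In HT29 cells miR-210-3p was 6.20-fold higher in MCS, yet this difference did not pass the test over all miRNAs. The 2D libraries held 536 and 7193 reads, or 97.8 and 165 normalized CPM. The MCS libraries held 4568 and 28288 reads, or 573 and 1058 normalized CPM. Again both MCS libraries were above both 2D libraries, while the replicates of either culture were further apart than in DLD1. The log2 fold change was 2.63 ± 0.57 (SE, n = 2 against 2), with a 95% interval of 1.16 to 4.10, and edgeR's quasi-likelihood test gave an unadjusted p of 0.00604 and a Benjamini-Hochberg adjusted p of 0.553 over 301 miRNAs. That value was also the smallest adjusted p of any miRNA in this line: 0.0% (0 of 301) were called up, 12 had an unadjusted p under 0.05, and 5 were called by edgeR's exact test and 12 by DESeq2. MiR-210-3p was called by both of these, with adjusted p-values of 0.0292 by the exact test and 0.000561 by DESeq2. It was 1 of 9 miRNAs (2.99% of those tested) with an unadjusted p under 0.05 and a rise of at least 1.5-fold. Both MCS libraries lay above both 2D libraries for 17.9% of the miRNAs tested in HT29.

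The spread was larger in HT29 for miRNAs in general, with a biological coefficient of variation of 0.521, against 0.193 in DLD1. MiR-210-3p was a miRNA of middle to high abundance in all 8 libraries. By read count it ranked 132 and 128 in the DLD1 2D libraries and 72 and 86 in the MCS libraries, out of 1083 to 1191 miRNAs with a read. In HT29 the ranks were 139 and 116 in 2D and 78 and 63 in MCS, out of 1061 to 1438. In each line it stood higher in the order of abundance in both MCS libraries, a reading that needs no scaling. As whole cultures were sequenced, more miR-210 per cell and more cells that express it cannot be told apart.

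**Figure D1:**
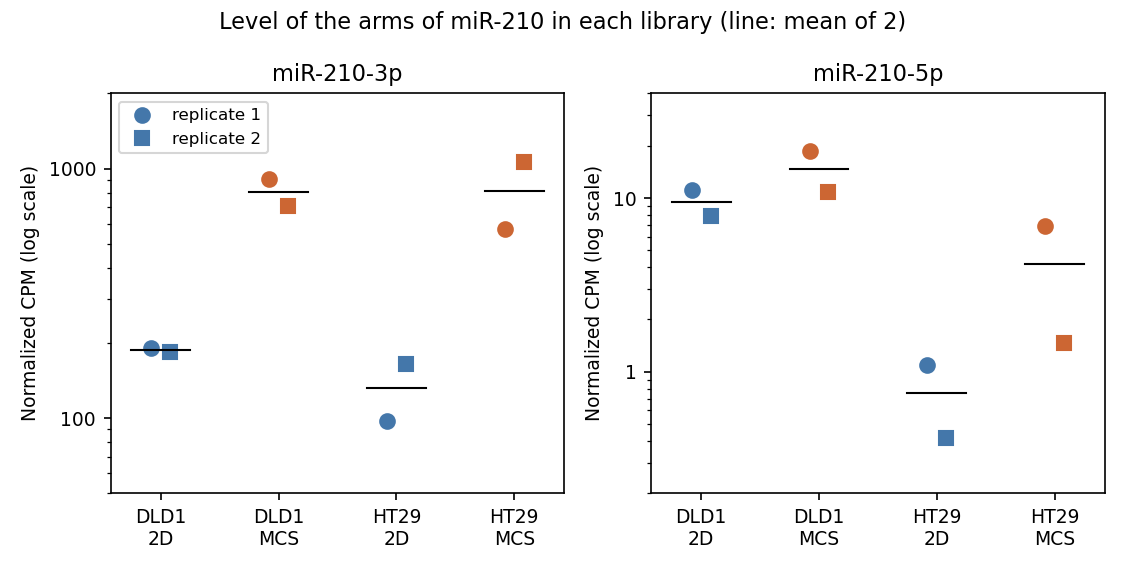
Normalized CPM of miR-210-3p (left) and miR-210-5p (right) on log axes for each library, with circles for replicate 1, squares for replicate 2 and a line at the mean of 2; blue is 2D and orange MCS, and values are scaled within a line. MiR-210-3p lies at 97.8 to 190 in the 2D libraries and at 573 to 1058 in the MCS libraries, while miR-210-5p overlaps between the cultures of DLD1.

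The response of miR-210-3p was not shown to differ between the lines. The log2 fold change in HT29 was 0.47 ± 0.59 (SE) above that in DLD1, with a 95% interval of -0.92 to 1.86, and the interaction of line and culture in edgeR's quasi-likelihood test gave a Benjamini-Hochberg adjusted p of 0.850. Of the 250 miRNAs tested in both lines, 0.0% had an adjusted p under 0.05 for this interaction, 23 had an unadjusted p under 0.05 and DESeq2 called 21. Over both lines together, the mean of the log2 differences was 2.36, or 5.13-fold, with p = 0.0556 in a 2-sided exact permutation test of the culture labels within each line, which is the smallest p that its 36 arrangements allow. Within 1 line an exact test of 2 against 2 cannot go below 0.333.

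When all 8 libraries were scaled together, the groups were ordered DLD1 2D (145 ± 1.13 normalized CPM, SD, n = 2), HT29 2D (174 ± 64.4), DLD1 MCS (622 ± 157) and HT29 MCS (1041 ± 417). The libraries of DLD1 2D and HT29 2D overlapped. HT29 2D and DLD1 MCS did not overlap and were 3.57-fold apart, and neither did DLD1 MCS and HT29 MCS, 1.67-fold apart, for which kit and line cannot be told apart. This order depended on the scaling. With library totals alone, DLD1 2D (213 CPM) lay above HT29 2D (163 CPM), and DLD1 MCS (527 to 942 CPM) and HT29 MCS (425 to 1646 CPM) overlapped.

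Among all tested miRNAs, the DLD1 rise of miR-210-3p ranked 14 of 346, and in HT29 its difference ranked 3 of 301. The largest rises in DLD1 were those of miR-4488 (log2 fold change 6.89), miR-4497 (5.30), miR-1246 (3.44), miR-7641 (3.20) and miR-9-3p (3.09). MiR-4488 and miR-4497 had started from at most 1.25 normalized CPM in 2D, against at least 183 for miR-210-3p. In HT29 the larger differences were those of miR-1246 (5.59), whose sequence is also part of the U2 small nuclear RNA, and miR-4485-3p (2.70). Both of these had been at 3.86 to 9.12 normalized CPM in HT29 2D. These ranks depend on the minimum, here a mean level of 10 CPM in the line. With at least 10 CPM in every library, miR-210-3p ranked 9 in DLD1 and 1 in HT29, and with no minimum 245 and 91. By p-value, miR-210-3p stood at 12 in DLD1 and at 3 in HT29.

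Of the 250 miRNAs tested in both lines, 4 had a rise of at least 1.5-fold with an unadjusted p under 0.05 in both: miR-210-3p, miR-1246, miR-142-5p and miR-375. MiR-142-5p, a miRNA of blood cells, had log2 fold changes of 2.18 in DLD1 and 1.82 in HT29. MiR-375, which is expressed in endocrine and intestinal epithelial cells, had 1.24 and 1.80. By Benjamini-Hochberg adjusted p-values of edgeR's quasi-likelihood test all 4 passed in DLD1 and none did in HT29, where their adjusted p-values were 0.553 to 0.642. Only miR-1246 had a larger log2 fold change than miR-210-3p in both lines, and miR-1246 and miR-210-3p were the 2 miRNAs that reached 4-fold in both. The 4-fold count refers to the upper quartile over all miRNAs. Under the other scalings below, miR-210-3p in DLD1 had a log2 fold change of 1.69 to 1.90, short of 4-fold (2 on the log2 scale).

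**Figure D2:**
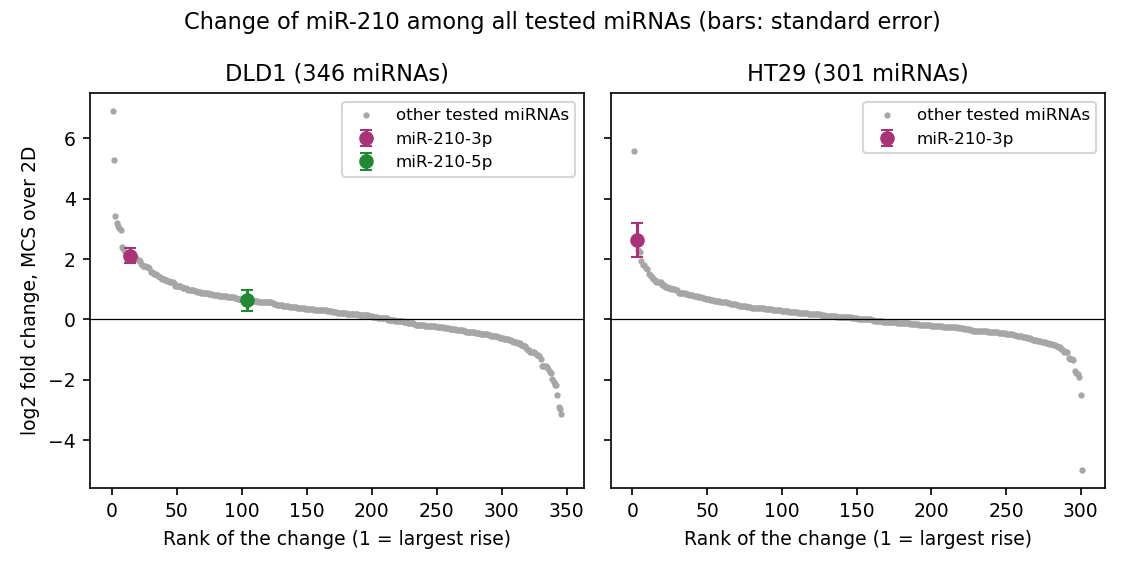
Log2 fold changes of MCS over 2D for all tested miRNAs of DLD1 (left) and HT29 (right), ordered from the largest rise, with the arms of miR-210 in color and bars for their standard errors. MiR-210-3p stands at rank 14 of 346 in DLD1 and 3 of 301 in HT29, and miR-210-5p, tested in DLD1 only, at rank 104.

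The scaling of the libraries moved the size of the change but not its direction. Under TMM factors, RLE factors, library totals, an upper quartile over tested miRNAs only and totals without miR-10a-5p, the DLD1 log2 fold change was 1.69 to 1.90 and remained called under each. These scalings moved the median of all tested DLD1 miRNAs by -0.46 to -0.24 on the log2 scale, and relative to the median miRNA, miR-210-3p was 1.88 to 1.93 higher under every scaling. In HT29 the log2 fold change was 2.34 to 2.67, the median of all moved by -0.24 to 0.13, and miR-210-3p was 2.48 to 2.60 above it. The rank was 13 in DLD1 and 3 in HT29 under each of the 5 scalings. A scaling shifts all log2 fold changes of a line by nearly the same amount. Ranks and distances from the median could therefore hardly move, and they are no separate support. The lowest MCS library was still 2.24-fold above the highest 2D library in DLD1 and 1.55-fold in HT29 where they came closest, the latter with library totals alone. With miR-10a-5p taken out of the totals the HT29 libraries were 2.25-fold apart.

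**Figure D3:**
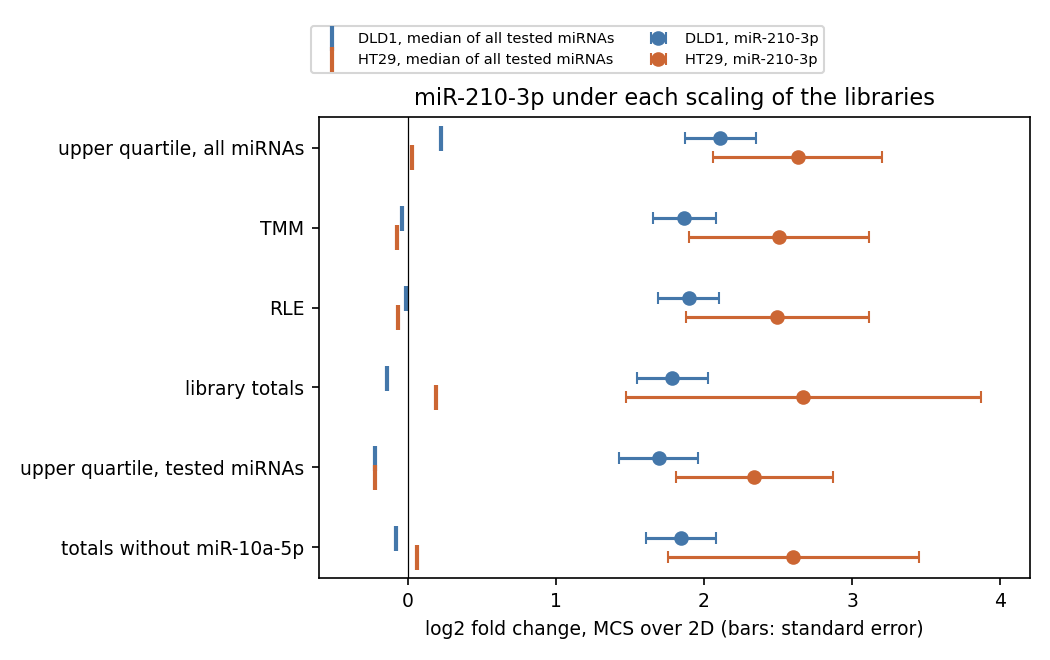
Log2 fold change of miR-210-3p (circles, bars for the standard error) and of the median tested miRNA (ticks), MCS over 2D, under each scaling in DLD1 (blue) and HT29 (orange). The circles lie between 1.69 and 2.67 and the medians between -0.22 and 0.23.

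A ratio to other miRNAs of the same library uses no scaling factor. The 6 miRNAs let-7a-5p, miR-16-5p, miR-93-5p, miR-191-5p, miR-423-5p and miR-425-5p are often used as references in RT-qPCR, and miR-210-3p was set against their geometric mean. In DLD1 it came to 4.42% and 4.19% of the reference in 2D and to 16% and 9.66% in MCS. In HT29 it came to 6.60% and 21.4% in 2D and to 37.9% and 97.8% in MCS. The groups did not overlap in either line, and the mean log2 difference was 1.94, or 3.85-fold (2.89-fold in DLD1 and 5.13-fold in HT29), with p = 0.0556 in the exact permutation test, again the smallest it allows.

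The references themselves were not level in DLD1. Let-7a-5p, a member of the large let-7 family, rose by 1.57 on the log2 scale (adjusted p = 1.64e-06 by edgeR's quasi-likelihood test), and was called under each scaling. MiR-191-5p (0.77) and miR-423-5p (0.81) were called up under the upper quartile of all miRNAs and under no other scaling. Against single references the log2 change of miR-210-3p ranged from 0.53 to 2.15 in DLD1, and from 2.02 to 2.73 in HT29. The smallest of these was against let-7a-5p, where the libraries of MCS and 2D overlapped in both lines, as they did against miR-423-5p in HT29. Against the other references both MCS libraries were above both 2D libraries.

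The 5p arm, the passenger or star strand that is mostly degraded after the hairpin is cut, was far rarer. In DLD1 it had 195 and 236 reads in 2D (11.1 and 7.93 normalized CPM) and 350 and 165 in MCS (18.7 and 10.8 normalized CPM). The cultures overlapped, since the lower MCS library lay under the higher 2D library. The log2 fold change was 0.64 ± 0.35 (SE, n = 2 against 2), with a 95% interval of -0.05 to 1.33, and it missed the threshold of edgeR's quasi-likelihood test (Benjamini-Hochberg adjusted p = 0.133), at rank 104 of 346.

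In HT29 the 5p arm was near the limit of detection in 2D. It had 6 reads in 1 library and 18 in the other (1.09 and 0.414 normalized CPM), for which exact Poisson intervals, covering counting error only, were 2.20 to 13.1 and 10.7 to 28.4 reads. In MCS there were 55 and 39 reads (6.90 and 1.46 normalized CPM). Both MCS libraries were above both 2D libraries, though the higher 2D and the lower MCS library were close. As the arm stayed under a mean of 10 CPM in HT29, it was tested without that minimum over 1636 miRNAs, where the log2 fold change was 2.64 ± 0.81 (SE, n = 2 against 2) and edgeR's quasi-likelihood test gave a Benjamini-Hochberg adjusted p of 0.102. Over both lines the log2 difference was 1.42 with p = 0.111 in the exact permutation test.

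Within the hairpin, the balance of the arms differed between the cultures of DLD1. The 5p arm made up 5.51% (95% Wilson interval 4.81 to 6.32) and 4.15% (3.66 to 4.69) of the reads of both arms in 2D. In MCS it made up 2.02% (1.82 to 2.23) and 1.51% (1.29 to 1.75). The groups did not overlap: there were 17.1 and 23.1 reads of the 3p arm for each 5p read in 2D, and 48.6 and 65.4 in MCS. The log2 ratio of 5p to 3p was thereby lower by a difference of -1.50 in MCS. Of 151 hairpins with both arms read in every DLD1 library, this was the 5th most negative difference, with a median of 0.04 over these hairpins, and it exceeded the gaps between miR-210 replicates of 0.43 in 2D and in MCS. By size regardless of sign it ranked 7, where the median size was 0.45 and the median replicate gaps were 0.39 in 2D and 0.34 in MCS. Lack of overlap was not particular to miR-210. The ratio of let-7a, for example, differed by 0.73 with replicate gaps of 0.29 and 0.23, and did not overlap either. The share of hairpins without overlap was not counted.

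In HT29 the share showed no such order. It was 1.11% (95% Wilson interval 0.508 to 2.39) and 0.250% (0.158 to 0.394) in 2D and 1.19% (0.915 to 1.55) and 0.138% (0.101 to 0.188) in MCS, so that the cultures overlapped. The replicates differed by 2.16 (2D) and 3.13 (MCS) on the log2 scale, more than the median gaps of 1.09 and 1.10 over the 137 hairpins compared in this line, and the difference between cultures was -0.38. Within each culture the library with the larger share of 5p was the one in which miR-10a-5p was most abundant, and its part in the share was not tested. Over both lines, the log2 ratio of the arms differed by -0.94 between cultures, with p = 0.389 in the exact permutation test. This value rested on single HT29 libraries, as it was -0.16 without MCS replicate 2, -0.40 without 2D replicate 1, -1.48 without 2D replicate 2 and -1.72 without MCS replicate 1.

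**Figure D4:**
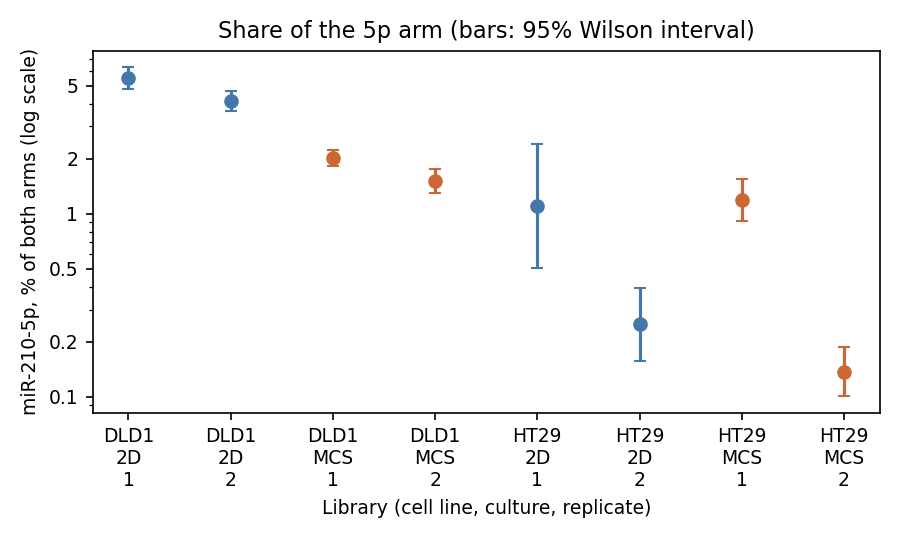
Share of miR-210-5p in the reads of both arms, in percent on a log axis, for each of the 8 libraries, with 95% Wilson intervals that cover counting error only; blue is 2D and orange MCS. The DLD1 shares are 4.15% and 5.51% in 2D and 1.51% and 2.02% in MCS, and the HT29 shares are 0.250% and 1.11% in 2D and 0.138% and 1.19% in MCS.

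Beside miR-210, 18 other mature miRNAs that have been tied to low oxygen or to hypoxia-inducible factors were followed. In DLD1, 17 of them were tested and 8 were called up, with 1 called down, where 29.8% of all tested miRNAs were called up and 11.6% down. Those called up were miR-23b-3p (log2 fold change 1.96), miR-27b-3p (1.78), miR-181a-5p (1.77), miR-26b-5p (1.11), miR-27a-3p (0.92), miR-181b-5p (0.84), miR-181a-3p (0.78) and miR-107 (0.62). Of these, miR-23b-3p and miR-27b-3p are made from a shared cluster, and miR-181a and miR-181b from shared clusters too, so they are not independent of each other. MiR-24-3p, also on the list and encoded in the cluster of miR-23b and miR-27b, did not rise with them. Its log2 fold change was -0.18 and not called, and ranged from -0.68 to -0.18 over the 6 scalings, 2 of which called it down. MiR-373-3p, a miRNA of embryonic stem cells, fell by 1.55 on the log2 scale. The median of the list was 0.57, against 0.23 over all miRNAs tested, and 13 of the 17 were higher in MCS, compared to 61.3% of all. None of the list reached the log2 fold change of miR-210-3p in DLD1, although that of miR-23b-3p lay within 1 standard error of it.

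The count depended on the scaling. Under the other scalings 4 to 6 of the list were called up and 2 or 3 down, while the share of all tested miRNAs called up was 14.2% to 20.8% and the share called down 18.2% to 26.9%. MiR-23b-3p, miR-27b-3p, miR-181a-5p and miR-26b-5p were called up under each scaling. MiR-21-5p, one of the most abundant miRNAs of the line, had a log2 fold change of -0.58 that did not pass the test and was called down under the other 5 scalings. The sign of miR-26a-5p, miR-103a-3p and miR-181d-5p in DLD1 turned with the scaling.

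In HT29, 15 of the list were tested and 0 were called, as 0 of all 301 miRNAs were. The median log2 fold change was 0.43, against 0.03 over all miRNAs tested, and 12 of the 15 were higher in MCS, compared to 52.8% of all (9 of 15 with the upper quartile of tested miRNAs only, 12 with every other scaling). The largest was that of miR-181d-5p at 1.25, which was below the 2.63 of miR-210-3p and was alone among the list in having an unadjusted p under 0.05 with a rise of 1.5-fold. Both MCS libraries were above both 2D libraries for 7 of the 15, beside 17.9% of all miRNAs, and for 11 of the 17 in DLD1, beside 45.4%. They were below both 2D libraries for 2 of the 15 in HT29 and 3 of the 17 in DLD1. The share of all miRNAs was not counted for this direction, so nothing is read from these counts.

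**Figure D5:**
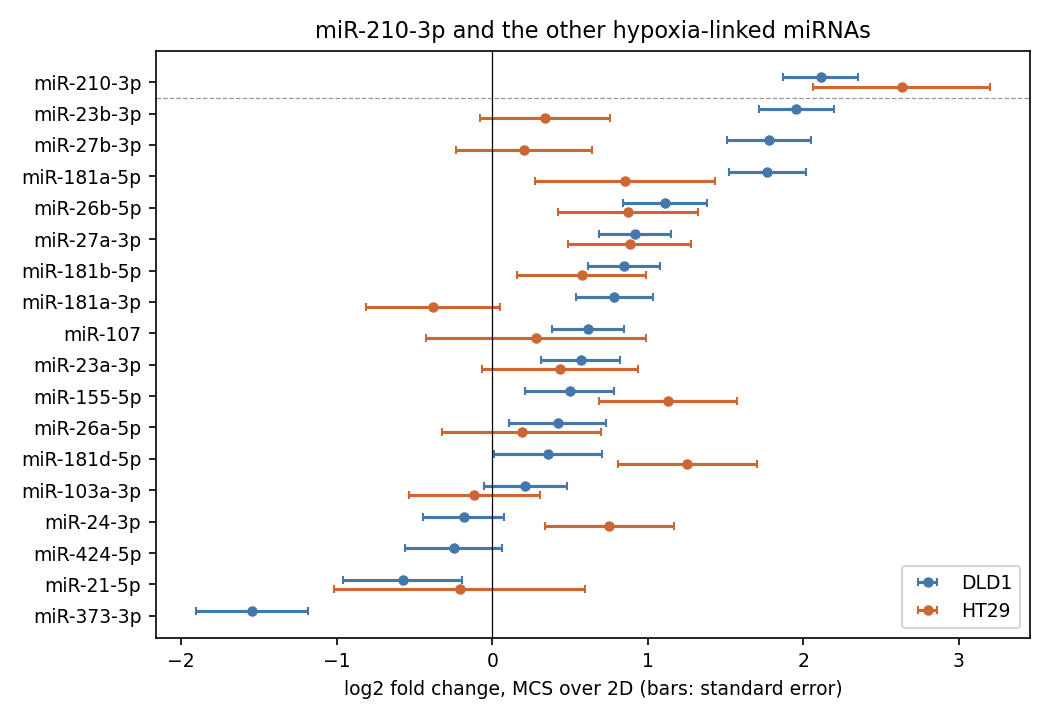
Log2 fold changes of MCS over 2D with standard errors in DLD1 (blue) and HT29 (orange) for miR-210-3p, above the dashed line, and for the tested members of the hypoxia list, ordered by DLD1. MiR-210-3p, at 2.11 and 2.63, lies to the right of every listed miRNA, which reach 1.96 in DLD1 and 1.25 in HT29.

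The miRNAs whose levels ran most like those of miR-210-3p were found by the root mean square difference of log2 levels over the 8 libraries, after each profile was centred within each line. Of 249 miRNAs compared, the nearest was miR-142-5p (0.40), followed by miR-194-5p (0.50), which marks intestinal epithelium, miR-29c-3p (0.53), whose family represses collagen genes, miR-142-3p (0.57) and miR-181a-5p (0.64) of the hypoxia list. The median difference over the 249 was 1.23. MiR-142-5p rose in DLD1 from 23.2 and 21.5 to 85.4 and 118 normalized CPM. In HT29 it was at 23.5 and 34.9 normalized CPM in 2D and at 98.4 and 108 in MCS. Of these 5 miRNAs, 4 had both MCS libraries above both 2D libraries in each line, whereas miR-181a-5p overlapped between the HT29 cultures. Over all miRNAs tested, both MCS libraries lay above both 2D libraries for 45.4% in DLD1 and 17.9% in HT29. All 5 were called up in DLD1, beside 29.8% of all. None was called in HT29, with adjusted p-values of 0.642 to 0.977 by edgeR's quasi-likelihood test. As the 5 were chosen for their likeness to miR-210-3p in these same libraries, these counts follow from the choice and are no separate result. MiR-142-3p, the other arm of the miR-142 hairpin, had 5 of its DLD1 scalings called out of 6, and the other 4 miRNAs had all 6.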

How the data were processed

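The authors trimmed adapters and random end bases with Cutadapt, dropped reads under 15 nucleotides, aligned the rest to GRCh37 (hg19) with Bowtie2 and to miRBase v21, and deposited the counts of reads for every mature miRNA, without normalization or pooling. How reads with several matches were counted is not given in the sources used here. The submitters' processing notes name cutadapt 1.11 and Bowtie2 2.1.0. The 12572 values shared by the single-library and joint tables were compared and 0 differed. In HT29, 15 entries naming no miRNA (2590 counts in 1 2D library, 0.00988% of it) were left out.

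Counts were analysed with edgeR 4.0.16 (R 4.3.3): upper quartile factors over miRNAs with a count in the line, a mean of at least 10 CPM, quasi-likelihood test, Benjamini-Hochberg adjustment over all tested miRNAs. A call needed 1.5-fold and an adjusted p under 0.05. Level permutations and profiles used log2 normalized CPM (pseudocount 0.5 for profiles). Hairpins compared for arm balance had both arms in every library and at least 100 counts of each over the line, a minimum chosen after seeing the data. DESeq2 1.42.0 was an alternative. With 2 replicates per group, precision is set by the spread between replicates, which the test shares across miRNAs, rather than by depth.

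The members and lists were chosen with earlier results of these data known. Named are both arms, listed miRNAs called in a line or giving its range, the references, at most 5 larger rises per line, rises in both lines and the 5 nearest profiles. MiR-21-5p and the listed miRNAs whose sign turned were named after their values were seen.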

Additional observations from a re-analysis of the deposited data

How the results depend on the processing

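The DLD1 rise of miR-210-3p was called under all 16 alternatives, with log2 fold changes of 1.69 to 2.22 and adjusted p-values up to 0.0329 (all libraries in 1 fit). In HT29 it was called by edgeR's exact test (2.63), DESeq2 (2.50), with no filter (2.63, adjusted p = 0.0224 in edgeR's quasi-likelihood test), with the replicate number as a block (2.62, adjusted p = 5.80e-11) and by its unadjusted p (2.63), over a range of 2.10 to 2.99 and adjusted p-values up to 0.999. MiR-210-5p in HT29 was called with the replicate block (2.15), with all libraries in 1 fit (2.64) and by its unadjusted p (2.64), and ranged from 1.12 to 3.37 as single libraries were left out; in DLD1 it was never called. The 2 libraries that share a number deviated together (correlation 0.338 in DLD1 and 0.788 in HT29, across miRNAs). In HT29 those numbered 1 also held a larger share of miR-10a-5p and fewer miRNAs with a read than those numbered 2. With 2 pairs per line and no label tying them, whether they were handled as pairs cannot be told. The block gave 47 calls in HT29, against 0, and changed no other call of miR-210.

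The DLD1 rank of 14 became 9 with at least 10 CPM in every library and 245 with no filter, which lets in miRNAs of few reads, and 8 to 19 as single libraries were left out (8 without MCS replicate 2). The HT29 rank of 3 became 1, 91 and, in 1 fit, 5, and 2 to 10 (10 without 2D replicate 1, 8 without MCS replicate 2). The hypoxia list had 9 calls in DLD1, 2 with all libraries in 1 fit and 4 to 9 with single libraries left out (4 without 2D replicate 2). In HT29 it had 1 call with no filter, 4 with the block and 1 by unadjusted p. All miRNAs called in DLD1 numbered 143, 27 in 1 fit and 92 to 124 with single libraries left out (92 without 2D replicate 2). In HT29 they numbered 5 by the exact test, 12 by DESeq2, 15 with no filter, 12 by unadjusted p and 0 to 2 with single libraries left out (1 without 2D replicate 1, 2 without 2D replicate 2). The cause of these shifts was not tested. A lone library was assumed to vary like the other group. Among miRNAs with an unadjusted p under 0.05, the share that was higher in MCS was 69.6% in DLD1 and 33.9% to 51.9% under other scalings, and 75.0% in HT29 against 50% to 88.9%.

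Of 204 comparisons with an alternative, 174 kept their direction and side of the threshold or, for counts and ranks, stayed within 1.5 times, and none turned its direction. Some of these could hardly change, such as the ranks under other scalings, so the tally is no measure of stability. Sizes still moved: the difference between the lines ranged from 0.0060 (without HT29 MCS replicate 2) to 0.97 on the log2 scale, the arm ratio from -1.72 to -0.16, and miR-210-5p in DLD1 from 0.23 to 0.92. MiR-210-5p had no value with 10 CPM in every library, nor in DLD1 without MCS replicate 1 or in 1 fit, where its mean fell under 10 CPM. Depth was not varied; the fewest reads behind a value were the 6 of miR-210-5p in HT29 2D replicate 1.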
